A study of Homo sapiens with 6 samples.

Results

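The BCL2 family genes decide at the mitochondrion whether a stressed cell lives or dies, and 10 of them were followed here, by symbol, among the 60675 genes of a count table from SUM159 cells. SUM159 is an established human cell line from a triple-negative breast cancer. The genes were 3 pro-survival members (BCL2, BCL2L1 and MCL1) and 7 pro-death members, of which BAX and BAK1 are the effectors and BBC3, PMAIP1, BCL2L11, BID and BIK are BH3-only genes. All 10 were found, each in 1 row, and 9 had enough reads to be tested. BIK was the exception. The series set cells with a knockout (KO) of DAPK3, a death-associated serine/threonine kinase, against control cells without it, to find genes whose mRNA differs. There were 3 libraries labelled DAPK3 KO, genotype DAPK3 KO, all from the single knockout line numbered 3, and 3 labelled control, genotype DAPK3 WT. Both groups are SUM159 cells, kept in the same serum, insulin and hydrocortisone medium, with no other treatment in the labels. How the knockout was made, and whether libraries of 1 label are separate cultures, is not stated in the sources used here, so p-values speak only to the spread among these libraries, which may be technical.

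As background, pro-survival BCL2 proteins hold BAX and BAK in check. BH3-only proteins, which are induced or activated by stress such as DNA damage, growth factor loss or endoplasmic reticulum stress, bind the pro-survival proteins or the effectors themselves. Once released, BAX and BAK permeabilise the outer mitochondrial membrane, cytochrome c leaves, and the apoptosome built on APAF1 activates caspases. Much of the control of these proteins lies in their stability, cleavage and location, which an RNA measurement does not show.

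Each library held between 16312184 and 22970823 expected counts. Levels are in CPM, reads of a gene as a share of all counted reads, scaled to a common library size with edgeR's TMM factors. The line's markers VIM, CD44, AXL, CAV1, EGFR and ZEB1 were all present. Of 10 luminal markers, 5 stayed at or under 1 CPM in each library, among them ESR1 at up to 0.478 CPM and PGR, listed at 0. ERBB2, whose low level helps define a triple-negative line, stood at 52.2 to 97.7 CPM. Luminal markers were not absent as a set, with KRT8 at 89.4 to 238 CPM and KRT18 at 276 to 449 CPM. GATA3 stood at 3.68 to 10.4 CPM and FOXA1 at 0.866 to 2.77 CPM. The 10 luminal markers summed to 571 to 627 CPM in KO and 570 to 664 CPM in control. The 6 blood and immune markers summed to 11.7 to 14.5 CPM in KO and 11.1 to 13.4 CPM in control, with CD3E at 0 in all KO libraries and at up to 0.0489 CPM in control, and CD68 the main contributor. The 5 endothelial and liver markers summed to 0.478 to 1.91 CPM in KO and 1.61 to 1.82 CPM in control, with CDH5 at 0. In bulk RNA, fewer cells of a type and less RNA per cell cannot be told apart.

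DAPK3 itself did not follow the labels. Its RNA was at 13.1 CPM in KO R1, 27.2 in KO R2 and 11.2 in KO R3, against 26.2 CPM in control R1, 10.5 in control R2 and 26.1 in control R3. Wherever 3 values of a group follow here, they are in the order R1, R2, R3. KO R2 thus read like 2 of the control libraries, and control R2 like 2 of the KO libraries. The labelled groups overlapped, with 17.1 ± 8.77 CPM in KO and 20.9 ± 9.06 CPM in control (SD, n = 3 each). Since a disrupted gene may still be transcribed, the DAPK3 level does not settle a genotype, and no library was moved. Over all genes, each R2 library also lay closest to one of the other label. By chi-square per degree of freedom between the counts of a pair, where a lower value is closer, KO R2 was nearest to control R1 at 35.3, with 69.5 to its nearest KO library, and control R2 was nearest to KO R3 at 12.9, with 88.6 to its nearest control library. An exchange of the R2 labels would turn round the values of both libraries in each mean and fold change over 6 libraries, and it was not tested. Each member is therefore given in every library, first by label and then beside DAPK3. A second comparison left out both R2 libraries, 2 per label remaining. The R2 pair was picked because of its DAPK3 RNA and its place among the other libraries, so the p-values of that comparison are not independent evidence for the labels.

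In the comparison of all 6 libraries, none of the 9 tested members passed the test of KO against control, and their labelled groups overlapped in each case. edgeR's quasi-likelihood test with Benjamini-Hochberg adjustment called 0 of the 9 at an adjusted p under 0.05, against 0% of the 14613 genes tested. At an unadjusted p under 0.05 there were 0 members, where 7.66% of all tested genes passed. limma-voom and DESeq2 also called 0 members, and over all genes they called 0 and 114. Groups did not overlap in 13.8% of all tested genes and in 0 of the 9 members. The median log2 fold change of KO over control was 0.19 over the 9 members, with 7 above 0 and 2 below, and 0.00 over all tested genes.

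With both R2 libraries left out, BAK1 and MCL1 rose and BCL2 fell, so a pro-death and a pro-survival gene were among those that rose. These 3 of 9 members, 33.3%, were called by edgeR at an adjusted p under 0.05, against 27.3% of the 14846 genes tested, so the share of called members is near the background. Of all tested genes 12.2% were called higher and 15.2% lower in KO. The other 6 members did not pass by edgeR, while limma-voom also called PMAIP1. The median log2 fold change was 0.33 over the 9 members, with 7 above 0 and 2 below, and −0.02 over all tested genes.

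**Figure D1:**
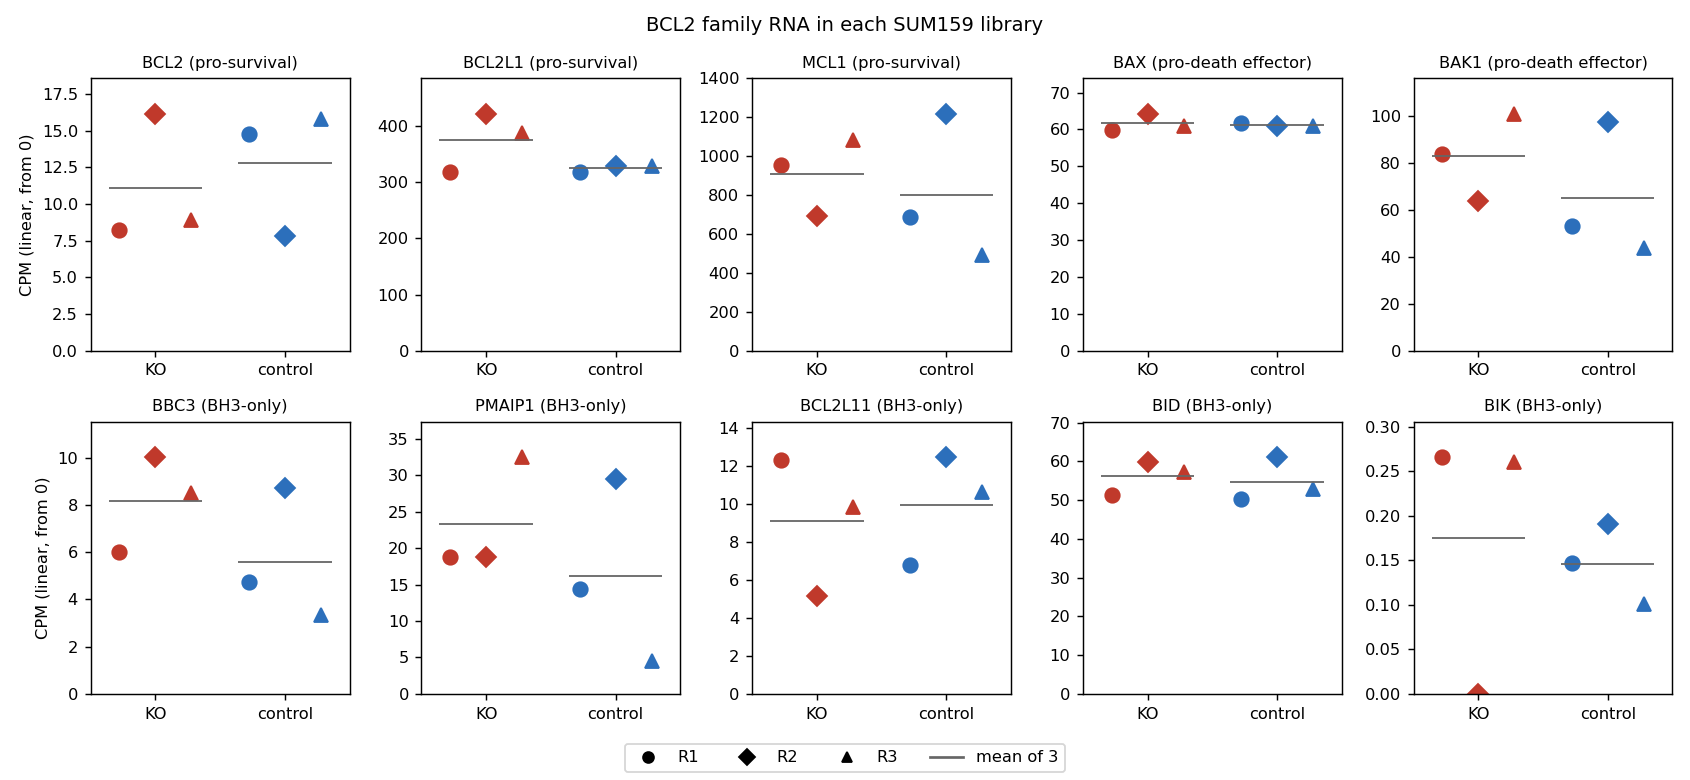
CPM of each of the 10 members (vertical axis, linear and starting at 0, a scale of its own per panel) in the 3 KO libraries on the left, in red, and the 3 control libraries on the right, in blue; circles are R1, diamonds R2 and triangles R3, and grey lines are the means of 3. BAX lay between 59.9 and 64.2 CPM in all 6 libraries, while for BCL2, MCL1 and BAK1 the R2 diamond of each group lay with the other label's R1 and R3 libraries.

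Among the pro-survival genes, MCL1 encodes a short-lived guardian that binds BAK and is turned over within hours. It stood at 957, 692 and 1082 CPM in the KO libraries, against 690, 1217 and 492 CPM in the control libraries. Control R2 was the highest library and control R3 the lowest, and the labelled groups overlapped (910 ± 199 CPM in KO and 800 ± 375 CPM in control, SD, n = 3 each). KO over control gave a log2 fold change of 0.19 (SE 0.34, adjusted p = 0.89 by edgeR) over 6 libraries. Without both R2 libraries it was 0.78 (SE 0.17, adjusted p = 0.018 by edgeR). The call was lost without control R3 as well, where control R1 is the only control library and the log2 fold change was 0.55. Leaving out KO R1, KO R3 or control R1 instead gave 0.88, 0.68 and 1.04. Those fits hold the same number of libraries and kept the call. Why it was lost without control R3 was not tested.

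BCL2, the founding member of the family, also encodes a pro-survival protein. It stood at 8.24, 16.1 and 8.94 CPM in the KO libraries, against 14.8, 7.79 and 15.8 CPM in the control libraries. KO R2 stood with control R1 and R3, and control R2 with KO R1 and R3. Between 155 and 314 expected counts of BCL2 lie behind each value. BCL2 had a log2 fold change of −0.20 (SE 0.37, adjusted p = 0.89 by edgeR) over 6 libraries and −0.84 (SE 0.19, adjusted p = 0.016 by edgeR) without both R2 libraries. That call was lost with the replicate number as a block, at −0.84 (adjusted p = 0.0502 by edgeR). MCL1 and BCL2 thus went opposite ways between the 4 remaining libraries, though both encode pro-survival proteins.

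BCL2L1 encodes BCL-XL, a long-lived pro-survival protein, and a shorter pro-death form made by splicing that gene-level counts do not separate. It stood at 318, 422 and 389 CPM in the KO libraries, against 319, 328 and 329 CPM in the control libraries. KO R2 and KO R3 lay above all control libraries, and KO R1 just below them. The margin between KO R1 at 318.1 CPM and control R1 at 318.8 CPM was less than the counting error of 5985 and 6525 expected counts. The position of KO R1 against control R1 is thus not settled. For BCL2L1 the log2 fold change came to 0.21 (SE 0.13, adjusted p = 0.72 by edgeR) over 6 libraries and 0.11 (SE 0.14, adjusted p = 0.59 by edgeR) without both R2 libraries. The antisense RNA ABALON overlaps its exons on the opposite strand and stood at 2.72 to 5.86 CPM.

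The effectors differed from each other in how much they varied. BAX stood at 59.9, 64.2 and 61.0 CPM in the KO libraries, against 61.6, 61.0 and 60.9 CPM in the control libraries. Its highest library was 1.07-fold its lowest, the narrowest span of the 9 tested members, and its log2 fold change of 0.01 had an SE of 0.10 (adjusted p = 0.98 by edgeR). BAK1 stood at 84.2, 64.1 and 101 CPM in the KO libraries, against 53.4, 97.7 and 44.0 CPM in the control libraries. KO R3 and control R2 were the highest and control R3 and R1 the lowest.

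The log2 fold change of BAK1 was 0.35 (SE 0.33, adjusted p = 0.78 by edgeR) over 6 libraries. Without both R2 libraries it was 0.92 (SE 0.15, adjusted p = 0.0063 by edgeR), and BAK1 kept its call in each alternative run of that comparison, with adjusted p from 1.1e-05 to 0.021. BAX without both R2 libraries stood at −0.03 (SE 0.12, adjusted p = 0.86 by edgeR).

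**Figure D2:**
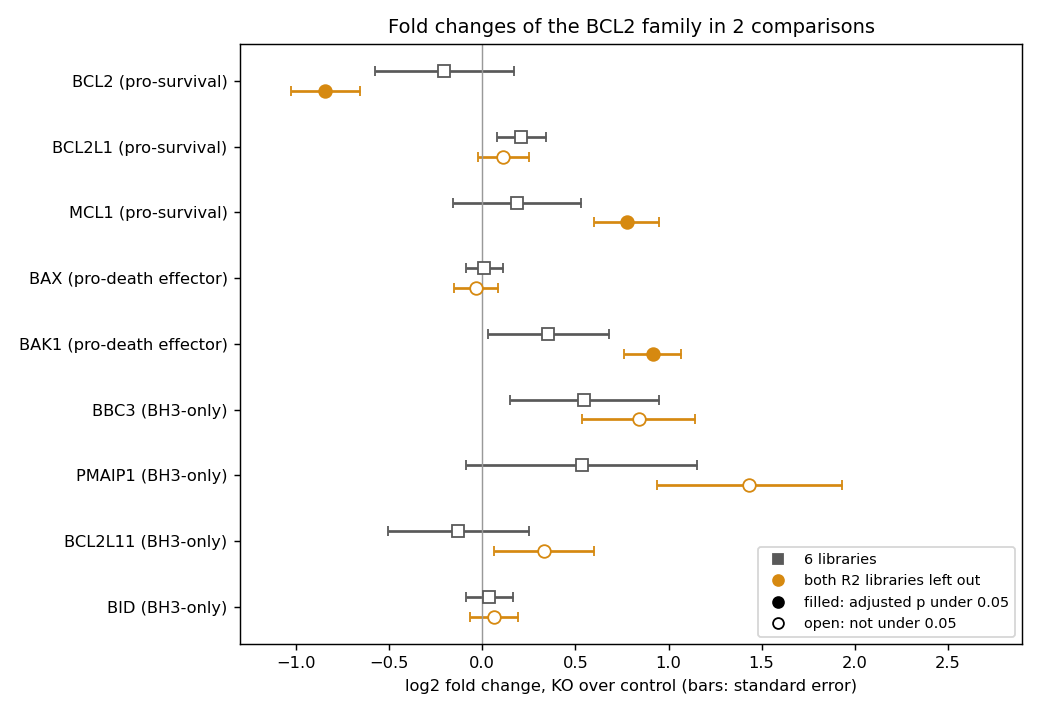
Log2 fold change of KO over control (horizontal axis) with its standard error for the 9 tested members, from all 6 libraries (grey squares) and with both R2 libraries left out (orange circles); filled symbols have an edgeR adjusted p under 0.05. Filled symbols appear for BCL2 at −0.84, MCL1 at 0.78 and BAK1 at 0.92, all in the comparison without both R2 libraries.

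Of the BH3-only genes, PMAIP1 and BBC3 encode NOXA and PUMA. NOXA binds MCL1, and PUMA binds all the pro-survival proteins. PMAIP1 stood at 18.8, 18.8 and 32.5 CPM in the KO libraries, against 14.4, 29.5 and 4.48 CPM in the control libraries. Control R3 stood far below the other 5 libraries with 89 expected counts, and the highest library was 7.25-fold the lowest, the widest span of the 9 tested members. The log2 fold change was 0.53 (SE 0.62, adjusted p = 0.83 by edgeR) over 6 libraries and 1.43 (SE 0.49, adjusted p = 0.071 by edgeR) without both R2 libraries. It passed without both R2 libraries and KO R1, at 1.79 (adjusted p = 0.00031 by edgeR), and without both R2 libraries and control R1, at 2.51 (adjusted p = 0.0021 by edgeR). In these fits 1 group is a lone library assumed to vary like the pair of the other label. With control R3 left out instead, it was 0.82 (adjusted p = 0.10 by edgeR), and with KO R3 left out it was 0.97 (adjusted p = 0.069 by edgeR). Without both R2 libraries limma-voom gave PMAIP1 1.61 (adjusted p = 0.049) and DESeq2 1.44 (adjusted p = 0.22).

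BBC3 stood at 6.01, 10.0 and 8.51 CPM in the KO libraries, against 4.74, 8.70 and 3.32 CPM in the control libraries. Control R2 lay among the KO libraries and control R1 and R3 lay below all of them. BBC3 had a log2 fold change of 0.55 (SE 0.40, adjusted p = 0.75 by edgeR) over 6 libraries and 0.84 (SE 0.30, adjusted p = 0.080 by edgeR) without both R2 libraries. Leaving out 1 more library gave 1.08 without KO R1 (adjusted p = 0.028 by edgeR), 0.55 without KO R3 (0.34), 1.12 without control R1 (0.068) and 0.60 without control R3 (0.25).

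BCL2L11 encodes BIM, which binds every pro-survival protein and can activate BAX directly. It stood at 12.3, 5.13 and 9.86 CPM in the KO libraries, against 6.79, 12.5 and 10.6 CPM in the control libraries. KO R2 was the lowest library and control R2 the highest. The log2 fold change was −0.13 (SE 0.38, adjusted p = 0.93 by edgeR) over 6 libraries and 0.33 (SE 0.27, adjusted p = 0.40 by edgeR) without both R2 libraries. The long noncoding gene MIR4435-2HG overlaps exons of BCL2L11 on the opposite strand and stood at 25.2, 32.7 and 26.5 CPM in KO and 37.2, 25.8 and 33.5 CPM in control. The strand setting of the counting is not given in the sources used here, so reads from the overlap cannot be told apart.

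BID links death receptors to mitochondria when caspase 8 cleaves its protein. It stood at 51.4, 59.9 and 57.3 CPM in the KO libraries, against 50.3, 61.1 and 52.7 CPM in the control libraries. The groups overlapped almost wholly, and its log2 fold change came to 0.04 (SE 0.13, adjusted p = 0.94 by edgeR) over 6 libraries and 0.06 (SE 0.13, adjusted p = 0.75 by edgeR) without both R2 libraries. BIK, a BH3-only gene whose protein sits at the endoplasmic reticulum, had 5, 0 and 6 expected counts in the KO libraries, against 3, 4 and 2 in the control libraries. At this depth no difference in BIK was detectable, and no fold change is given.

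Set beside DAPK3, 4 of the 9 tested members divided the libraries by DAPK3 level rather than by label. The 3 libraries lowest in DAPK3 were control R2, KO R3 and KO R1, and the 3 highest were control R3, control R1 and KO R2. All of the lowest 3 lay above all of the highest 3 for MCL1, BAK1 and PMAIP1, and below them for BCL2. For PMAIP1 the margin was between 18.81 CPM in KO R1 and 18.80 CPM in KO R2, less than the counting error of 354 and 304 expected counts. Among all genes tested, 43.5% divided these libraries without overlap, 21.3% being higher in the 3 libraries lowest in DAPK3 and 22.2% lower, so a share of 44.4% of members is near the background. BAX, BID, BCL2L1, BBC3 and BCL2L11 overlapped, with BCL2L11 missing a clean division through KO R3 at 9.86 CPM and control R3 at 10.6 CPM. Of the 6 blood and immune markers, 3 (PTPRC, CD14 and CD68, the last in the other direction) also divided the libraries in this way. PTPRC, the leukocyte marker, stood at 0.106, 3.28 and 0 CPM in the KO libraries, against 2.98, 0.0478 and 2.92 CPM in the control libraries. The same division held for 3 of the 6 markers of the line (VIM, AXL and ZEB1) and 3 of the 10 luminal markers (KRT8, KRT18 and FOXA1). It held for 0 of the 5 endothelial and liver markers. The part of all these markers in the division was not tested. The division itself is a description of the libraries, with no test.

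**Figure D3:**
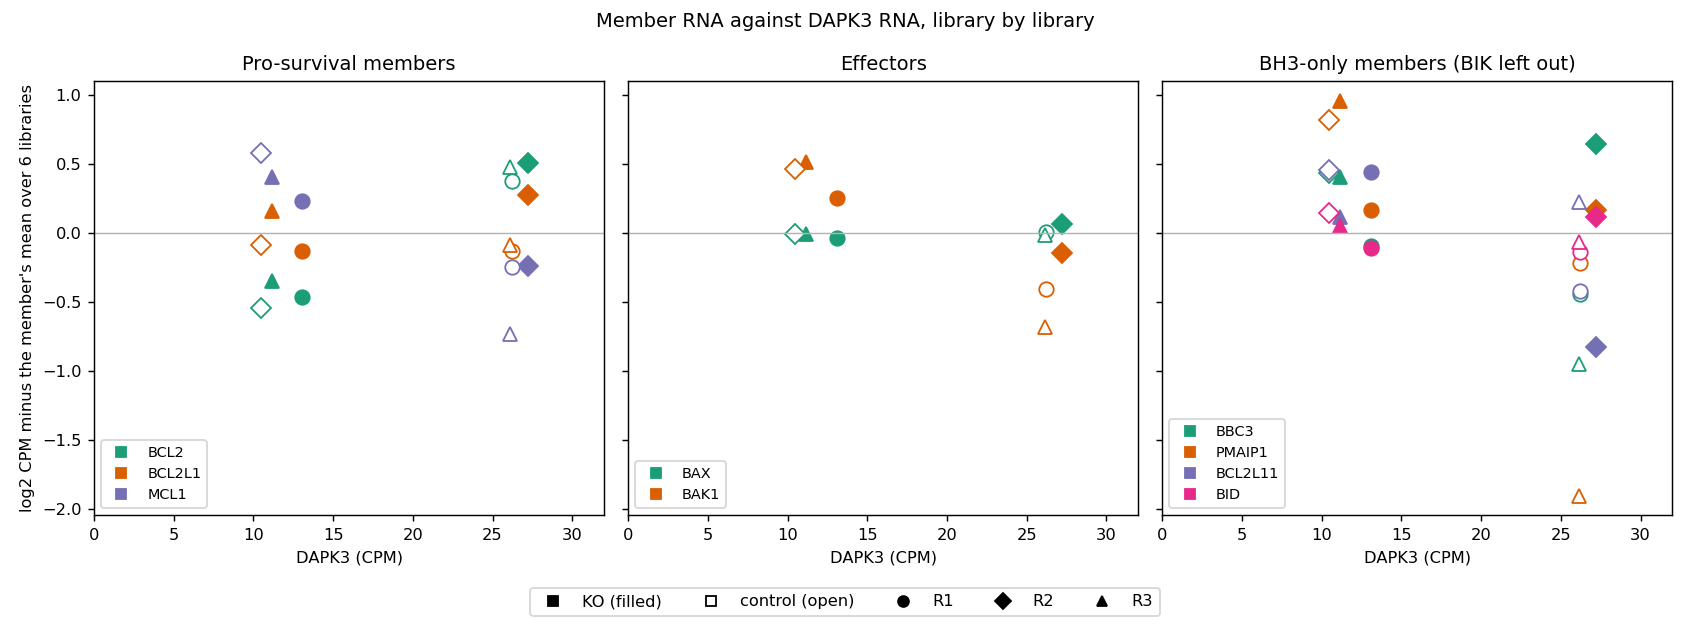
Log2 CPM of each tested member minus its mean over the 6 libraries (vertical axis) against DAPK3 CPM in the same library (horizontal axis), for pro-survival members, effectors and BH3-only members; filled symbols are KO, open symbols control, and shapes give the replicate number. DAPK3 lay from 10.5 to 13.1 CPM in one trio and from 26.1 to 27.2 CPM in the other, with MCL1 and BAK1 higher and BCL2 lower in the first.

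By role, the pro-survival and the pro-death sums were high and low in the same libraries. The pro-survival members summed to 1283, 1130 and 1479 CPM in the KO libraries, against 1023, 1553 and 837 CPM in the control libraries. The pro-death members summed to 233, 222 and 271 CPM in the KO libraries, against 191, 271 and 176 CPM in the control libraries. Both sums were highest in KO R3 and control R2, whose pro-death sums were nearly equal, and lowest in control R3. The groups overlapped in both sums, which stood at 1297 ± 175 CPM in KO and 1138 ± 372 CPM in control for survival and at 242 ± 25.4 CPM in KO and 213 ± 50.7 CPM in control for death (SD, n = 3 each). MCL1 made up 61.2% to 74.6% of the pro-survival sum in KO and 58.8% to 78.4% in control, in reads that are not scaled by gene length, so the sum mostly follows MCL1.

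Within a library, the ratio of MCL1 to its partner BAK1 in CPM varied little, at 11.4, 10.8 and 10.7 in the KO libraries, against 12.9, 12.5 and 11.2 in the control libraries. The ratio of BAX to BCL2, often quoted as a measure of readiness to die, was 7.27, 3.98 and 6.83 in the KO libraries, against 4.18, 7.83 and 3.86 in the control libraries. KO R2 was below both other KO libraries and control R2 above both other control libraries in the BAX to BCL2 ratio. With BAX nearly level, this ratio mostly follows BCL2.

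**Figure D4:**
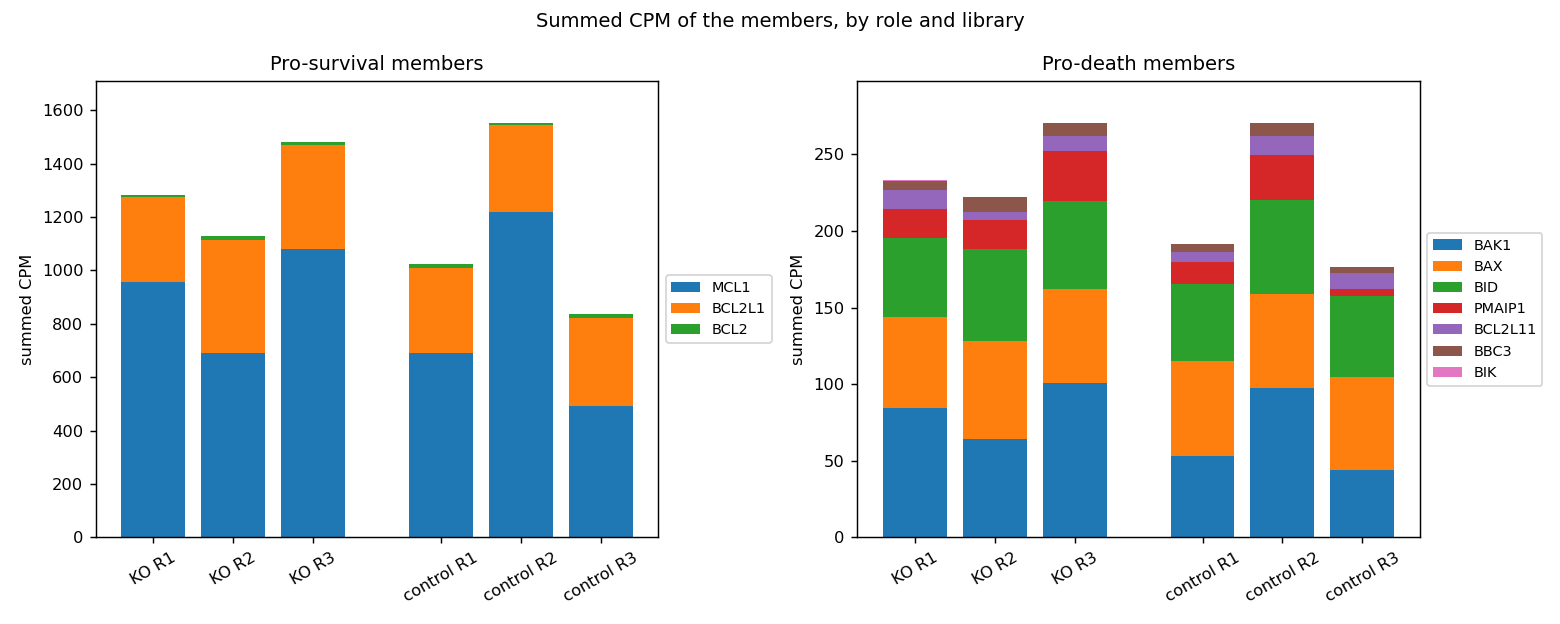
Stacked CPM of the 3 pro-survival members (left panel) and the 7 pro-death members (right panel) in each library, KO left of control, bars starting at 0. The pro-survival bars ran from 837 CPM in control R3 to 1553 CPM in control R2, mostly MCL1, and BAX and BID gave bands of near constant height.

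Per kilobase of exon, MCL1 was the most abundant member, with a median over the 6 libraries of 189 CPM per kb (112.5 to 279). BCL2L1 followed at 99.2 CPM per kb (96.0 to 127), a range that overlaps that of MCL1, though MCL1 was the higher in each library. BAK1 at 33.5 (19.9 to 45.7) and BAX at 23.6 (23.2 to 24.8) CPM per kb also overlapped, and BID stood at 12.4 (11.3 to 13.7) CPM per kb, apart from BAX. PMAIP1 at 8.41 CPM per kb (2.004 to 14.5) overlapped both BID and BBC3. BBC3 stood at 2.28 (1.04 to 3.15) CPM per kb and was below PMAIP1 in each library. BCL2L11 at 1.54 (0.771 to 1.87) and BCL2 at 1.01 (0.662 to 1.37) CPM per kb also overlapped, and BIK was last at 0.177 (0 to 0.279) CPM per kb. Of the 9 tested members, MCL1 and BCL2, both pro-survival genes, thus had the highest and the lowest median per kilobase, though BCL2 was above BCL2L11 in KO R2 and control R1 and above BBC3 in control R3.

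The 3 promoters shown next belong to BAK1, which rose, and BCL2, which fell, both in the comparison without both R2 libraries, and to PMAIP1, the most variable member. They were taken from RefSeq on GRCh38.p14, which held promoters for 8 of the 10 members, and run from 250 bases before to 50 bases after the start. Capitals mark GC boxes (GGGCGG) and CCAAT boxes (CCAAT), read on both strands.
BAK1 (chr6:33580227-33580526, minus strand): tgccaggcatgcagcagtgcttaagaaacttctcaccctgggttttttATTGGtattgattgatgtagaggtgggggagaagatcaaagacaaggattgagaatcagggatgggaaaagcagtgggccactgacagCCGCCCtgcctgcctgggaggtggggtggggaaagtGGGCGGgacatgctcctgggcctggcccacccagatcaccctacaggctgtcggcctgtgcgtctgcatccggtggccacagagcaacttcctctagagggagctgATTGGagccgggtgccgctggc
BCL2 (chr18:63319720-63320019, minus strand): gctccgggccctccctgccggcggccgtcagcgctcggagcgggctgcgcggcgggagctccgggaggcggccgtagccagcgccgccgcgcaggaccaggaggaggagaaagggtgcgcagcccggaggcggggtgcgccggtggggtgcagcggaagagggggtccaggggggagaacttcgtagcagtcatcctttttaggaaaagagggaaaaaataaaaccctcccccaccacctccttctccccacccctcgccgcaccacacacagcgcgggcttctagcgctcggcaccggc
PMAIP1 (chr18:59899746-59900045, plus strand): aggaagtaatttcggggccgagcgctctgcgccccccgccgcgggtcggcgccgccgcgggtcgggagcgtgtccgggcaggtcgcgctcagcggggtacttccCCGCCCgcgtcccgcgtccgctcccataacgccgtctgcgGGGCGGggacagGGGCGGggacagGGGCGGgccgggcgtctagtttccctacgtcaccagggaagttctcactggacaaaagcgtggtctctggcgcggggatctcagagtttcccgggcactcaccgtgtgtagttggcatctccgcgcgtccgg
The BAK1 promoter held 2 GC boxes and 2 CCAAT boxes, that of PMAIP1 held 4 GC boxes, and that of BCL2 held neither. GC boxes occurred in 45.0% and CCAAT boxes in 34.6% of the 35116 promoters of that length. None of the 3 held a CRE (TGACGTCA, in 1.85% of all), an E-box (CACGTG, 7.26%), a TATA box (TATAAA, 11.5%) or an AP-1 motif (TGANTCA, 7.71%), also read on both strands. No motif overlapped another in these windows. GC content was 58.7% for BAK1, 70.7% for BCL2 and 71.3% for PMAIP1. By GENCODE release 29 on GRCh38, the protein-coding genes run at chromosome 6, 33572547 to 33580293 (BAK1, ENSG00000030110), chromosome 18, 63123346 to 63320128 (BCL2, ENSG00000171791) and chromosome 18, 59899948 to 59904306 (PMAIP1, ENSG00000141682), so the annotated ends differ between the 2 sources.

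The genes whose profile over the 6 libraries lay closest to the 2 most variable members were found, among all tested genes, by the root mean square difference of centred log2 CPM. For PMAIP1 they were CXCL8 (0.29), PHLDA1 (0.31) and NFKBIE (0.33), and for BBC3 they were C5orf38 (0.15), RELB (0.15) and TAF1A (0.18). CXCL8 stood at 94.7, 95.1 and 95.5 CPM in the KO libraries, against 67.0, 114 and 15.8 CPM in the control libraries. As with PMAIP1, control R3 was the lowest library by far and control R2 was above control R1.

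Of 77 further apoptosis genes in 7 lists, 70 were tested. Over 6 libraries edgeR called 0 of them and 7 had an unadjusted p under 0.05, where 7.66% of all tested genes did, while limma-voom called 0 and DESeq2 called 1, APAF1. Without both R2 libraries 14, or 20.0%, were called, 6 higher and 8 lower in KO, against the 27.3% over all genes. By DAPK3 level 41.4% of the 70 divided the libraries without overlap, against 43.5% of all tested genes, and by label 17.1%, against 13.8%, so both shares are near the background.

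Among the 9 tested of 13 other BCL2 family genes, 1 was called higher and 2 lower without both R2 libraries, and the list median was −0.28. BOK, encoding a BAX-like effector, stood at 11.2, 53.2 and 13.8 CPM in the KO libraries, against 38.2, 14.1 and 33.0 CPM in the control libraries. Both R2 libraries stood with the other label, and without them BOK fell, with a log2 fold change of −1.52 (SE 0.18, adjusted p = 0.0016 by edgeR). BMF, a BH3-only gene tied to the cytoskeleton, stood at 4.36, 4.58 and 2.74 CPM in the KO libraries, against 7.96, 3.54 and 10.5 CPM in the control libraries. It fell by 1.41 on the log2 scale (SE 0.31, adjusted p = 0.016 by edgeR), a call lost without control R3 as well (−1.19, adjusted p = 0.051 by edgeR). BAD, the BH3-only gene regulated by growth factor signalling, rose by 0.73 (SE 0.20, adjusted p = 0.035 by edgeR), a call lost at 0.55 without KO R3 (adjusted p = 0.14 by edgeR) and at 0.61 without control R1 (0.12). The 4 members with too few reads to test were BCL2A1, BCL2L10, BCL2L14 and BCL2L15.

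Downstream of the mitochondrion, 1 of 14 apoptosome, caspase and substrate genes was called higher and 2 lower without both R2 libraries, with a median of 0.04. APAF1, the apoptosome scaffold, stood at 8.66, 11.1 and 10.98 CPM in the KO libraries, against 24.2, 16.1 and 17.9 CPM in the control libraries. All 3 KO libraries lay below all 3 control libraries, the R2 pair included. Its log2 fold change over 6 libraries was −0.92 (edgeR unadjusted p = 0.0041, adjusted p = 0.63), and by DESeq2 its adjusted p was 0.034. With both R2 libraries left out it was −1.11 (SE 0.22, adjusted p = 0.011 by edgeR). DFFA, encoding the inhibitor of the caspase-activated nuclease, rose by 0.45 (adjusted p = 0.025 by edgeR) and HTRA2, a mitochondrial protease, fell by 0.50 (adjusted p = 0.039 by edgeR). DFFA lost its call at a nearly equal log2 fold change, of 0.44 without KO R1 (adjusted p = 0.064 by edgeR), 0.43 without control R1 (0.11) and 0.47 without control R3 (0.083). HTRA2 lost its call at −0.43 without KO R1 (adjusted p = 0.13 by edgeR) and −0.37 without control R1 (0.20).

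Of the inhibitor of apoptosis genes, 0 of 5 tested were called by edgeR without both R2 libraries (1 at an unadjusted p under 0.05) and the median was −0.15. BIRC3, encoding cIAP2, stood at 0.23 (SE 0.33) and BIRC5, encoding survivin, at −0.64 (SE 0.20, adjusted p = 0.051 by edgeR). Of 11 mitochondrial partners of BAX and BAK, 1 was called lower and 0 higher (median −0.16): VDAC3, an outer membrane channel, at −0.76 (SE 0.15, adjusted p = 0.011 by edgeR). Of 12 death receptor genes tested, 1 was called higher and 0 lower (median −0.03): the receptor gene FAS at 0.48 (SE 0.14, adjusted p = 0.043 by edgeR). The FAS call was lost on leaving out any 1 of the 4 libraries, while the log2 fold change kept its direction, at 0.53 without KO R1 (adjusted p = 0.071 by edgeR), 0.45 without KO R3 (0.14), 0.55 without control R1 (0.091) and 0.42 without control R3 (0.17). Of 8 genes that turn over MCL1 and BIM, 1 was called lower and 0 higher (median −0.18).

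Of 11 transcription factors known to act on BH3-only genes, 3 were called higher and 2 lower without both R2 libraries, with a median of 0.55. Over all tested genes 12.2% were called higher and 15.2% lower, with a median of −0.02. The list was not tested as a set. MYC stood at 926, 901 and 922 CPM in the KO libraries, against 575, 759 and 416 CPM in the control libraries. All KO libraries lay above all control libraries, though over 6 libraries the log2 fold change of 0.65 did not pass (adjusted p = 0.63 by edgeR, unadjusted p = 0.020). With both R2 libraries left out MYC rose by 0.89 (SE 0.16, adjusted p = 0.0087 by edgeR) and TP63 by 1.18 (SE 0.21, adjusted p = 0.0084 by edgeR). FOXO1, a factor restrained by insulin signalling, fell by 0.93 (SE 0.14, adjusted p = 0.0041 by edgeR) and E2F1, a driver of S phase, by 0.87 (SE 0.19, adjusted p = 0.015 by edgeR). Of the 14 genes called in these lists, 8 kept their call in all 12 alternatives of that comparison, among them BOK, APAF1, VDAC3, MYC, TP63, FOXO1 and E2F1. BMF kept its call in 11 of the 12, BAD, DFFA and HTRA2 in 8 each, and FAS in 5. These alternatives cover other settings as well as libraries left out.

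**Figure D5:**
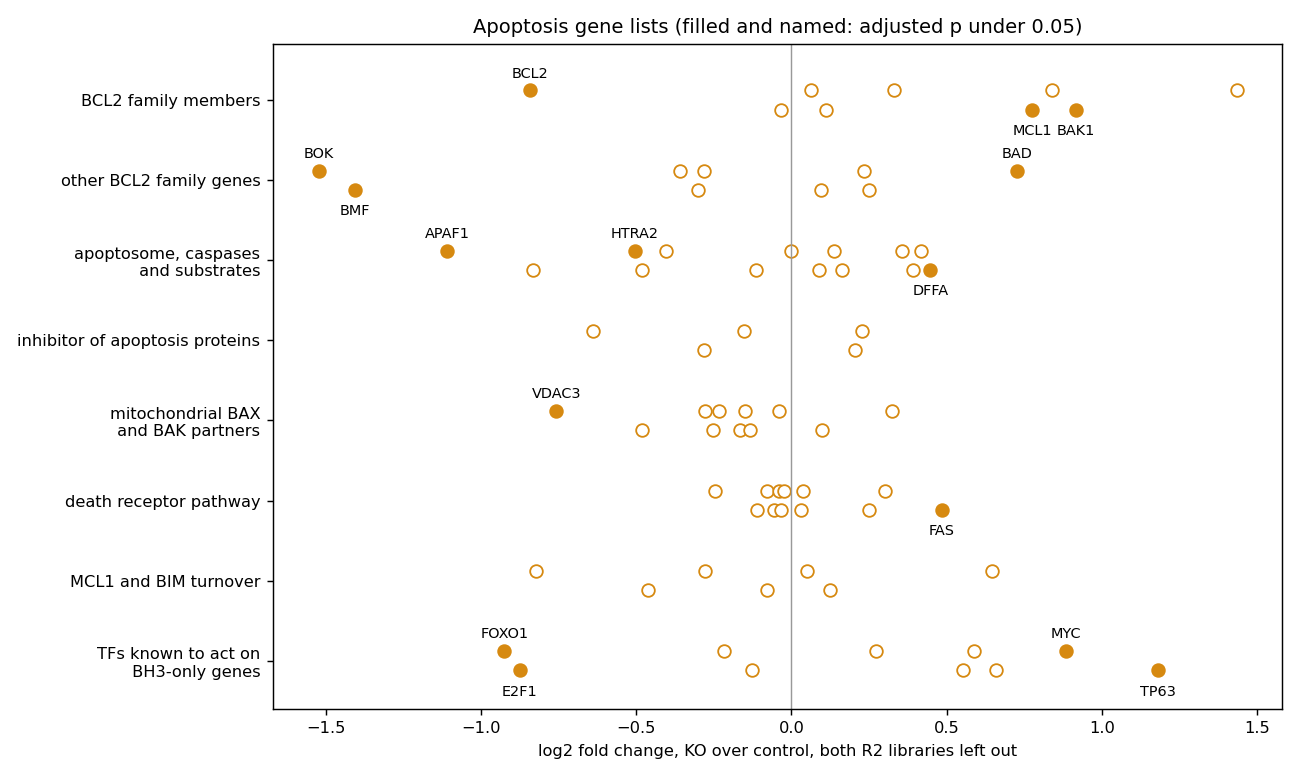
Log2 fold change of KO over control with both R2 libraries left out (horizontal axis) for the tested genes of the 10 members and the 7 further lists (rows); filled and named circles have an edgeR adjusted p under 0.05, and 2 called genes that are not reported here are not drawn. Called genes lay on both sides of 0, from BOK at −1.52 to TP63 at 1.18.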

How the data were processed

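The deposited table holds the authors' expected counts, as RSEM estimates them, not normalized, with 1 column per library. RSEM, Bowtie2 and edgeR are named with GRCh38 in the submitters' processing notes. Their versions, the annotation release and the strand setting were not stated in these sources. Expected counts were rounded, filtered with filterByExpr, scaled by TMM (factors 0.991 to 1.015) and tested with edgeR 4.0.16 (glmQLFit, glmQLFTest, R 4.3.3), p-values being adjusted over all tested genes, and genes at an adjusted p under 0.05 were called. A standard error is the fold change over the root of its F. Levels per kilobase use the union of exons in GENCODE release 29, which held all 10 members by identifier and may differ from the authors' release. Alternatives were scaling by RLE, upper quartile or library size, 2 other filters, DESeq2 1.42.0, limma-voom (limma 3.58.1), a threshold of 0.1, the replicate number as a block and each library left out. For likeness, 0.5 was added to CPM before log2.

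The members, lists and the comparison without both R2 libraries were chosen with earlier results of these data known. Of the further lists, called genes were named, up to 3 per direction, or the 2 most abundant where none was called. Some list genes are not reported here by name and stay in the counts. The tests were checked on simulated counts with the same spread in every gene and no split of libraries across the labels. That check therefore does not cover the R2 libraries as found here. The libraries all differed from each other by more than counting noise (lowest chi-square over degrees of freedom, 12.9).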

Additional observations from a re-analysis of the deposited data

How the results depend on the processing

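Over 6 libraries, genes called numbered 0 by edgeR under each scaling, filter and threshold run, under limma-voom and without any 1 library (0 to 0), 114 by DESeq2 (45 higher, 69 lower), and 4055 with both R2 libraries left out, which called 3 members. With both R2 libraries left out, a further library omitted gave 2543 to 3700 genes, the fewest without control R1, and 2 to 5 members, while a threshold of 0.1 gave 5 members. Same-numbered libraries did not deviate together: their correlations were −0.65, −0.85 and −0.70 for R1, R2 and R3, and 0 KO libraries matched best with their own number. Pairs of an R2 library with another number gave 0.61 to 0.79, and R1 with R3 gave −0.61 and −0.36. The signs thus follow the split of the R2 libraries from R1 and R3. They cannot show whether libraries of the same number are paired. The replicate block gave 0 calls over 6 libraries and 2705 without both R2 libraries, where BCL2 stood at −0.84 (adjusted p = 0.0502) and MCL1 and BAK1 were called.

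Several members changed sign between settings, in fits that called neither value. The cause was not tested. Over 6 libraries BAX stood at −0.0081 under a filter of CPM of at least 1, −0.027 with upper-quartile factors, −0.033 without both R2 libraries and −0.029 to 0.022 leaving out 1 library. BID stood at −0.0011 with upper-quartile factors and −0.021 to 0.11 leaving out 1 library, BCL2L11 at 0.33 without both R2 libraries and −0.42 to 0.14 leaving out 1, and MCL1 at −0.077 to 0.61. Without both R2 libraries, BAX stood at 0.00084 with library size only and −0.055 to 4.2e-05 leaving out 1 library, BCL2L1 at −0.049 to 0.27 and BID at −0.027 to 0.16. Per kilobase of the longest transcript, BAX and BAK1 changed places and 8 of 10 members kept their rank. With 3 libraries per label, and BIK at 0 to 6 expected counts, small differences were not detectable.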
